A study of Homo sapiens with 4 samples.

Results

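The BCL2 family decides, at the mitochondrial outer membrane, whether a stressed cell enters apoptosis. Its anti-apoptotic members bind and restrain the effectors BAK1 and BAX, which otherwise open pores in that membrane, and the BH3-only members sense stress and either occupy the anti-apoptotic proteins or trigger the effectors directly. Colorectal carcinoma cells commonly depend on BCL-XL, the long product of BCL2L1, and on MCL1. The 10 genes described here are the anti-apoptotic BCL2, BCL2L1 and MCL1, the effector BAK1, the BH3-only BID, BAD, BIK, BCL2L11 and PMAIP1, and BCL2L13, a BCL2-like protein of the mitochondrial membrane. They were taken by gene symbol from a fixed list, by a rule that used no values, although earlier results of these data were known. All 10 were found among the 19974 rows of each table. The list was meant to leave out p53 targets, but PMAIP1, which encodes NOXA, is a well-known p53 target.

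HCT116, an established human colorectal carcinoma cell line, received either a non-targeting control siRNA, called si-NC, or an siRNA against the long noncoding RNA LINC00152, called si-152, each at 100 nM, and RNA was sequenced after 36 h from 2 biological replicates per group. Every group is this 1 cell line under a transient transfection, and no untransfected cells were analysed here. Levels are in FPKM, that is, fragments scaled to transcript length and to the size of the library, so that levels of different genes can be set side by side. LINC00152 itself was not analysed here, so the extent of its knockdown in these libraries was not checked.

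Summed FPKM ran from 424754 to 534311 over the 4 libraries and the number of reads is unknown. Among genes under 0.05 FPKM, the most frequent ratio to si-NC replicate 1 was 1.15, 0.93 and 1.07 in the other libraries. Of 7 colorectal epithelial markers, 6 were expressed, among them EPCAM at 190.5 to 239.5 FPKM and, the lowest of them, CDX2 at 8.29 to 10.4 FPKM. VIL1 was at or near 0. Among 8 markers of other cell types, PTPRC and DCN were listed at 0 in every library, CD3E, COL3A1, PECAM1 and VWF were near 0, and CD68 and COL1A1 were at 2.73 to 3.47 and 7.02 to 7.98 FPKM.

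Family members dock into each other through the BH3 motif, a short helix of one protein that fits the groove of another. The coding bases of this motif are shown because they are the feature that joins the anti-apoptotic, effector and BH3-only genes. GENCODE v29 transcripts on GRCh38 were searched, in the coding frame, for a leucine codon, any 3 codons, a glycine or serine codon and an aspartate codon. Each line starts at the leucine codon and runs 5′ to 3′ over 27 bases, with the leucine, glycine or serine, and aspartate codons in capitals.
BCL2 (chr18:63318352-63318378, minus strand, exon 2 of 3): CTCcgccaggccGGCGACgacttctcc
BCL2L1 (chr20:31721925-31721951, minus strand, exon 2 of 3): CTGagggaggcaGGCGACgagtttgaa
MCL1 (chr1:150578868-150578894, minus strand, exon 1 of 3): TTAcgacgggttGGGGATggcgtgcag
BAK1 (chr6:33575390-33575416, minus strand, exon 4 of 6): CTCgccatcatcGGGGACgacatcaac
BID (chr22:17739418-17739444, minus strand, exon 4 of 6): CTCgcccaggtcGGGGACagcatggac
BAD (chr11:64271625-64271651, minus strand, exon 3 of 4): CTCcggaggatgAGTGACgagtttgtg
BIK (chr22:43127716-43127742, plus strand, exon 3 of 5): CTGgcctgcatcGGGGACgagatggac
BCL2L11 (chr2:111150103-111150129, plus strand, exon 4 of 5): TTGcggcgtattGGAGACgagtttaac
PMAIP1 (chr18:59902673-59902699, plus strand, exon 2 of 2): CTCaggagatttGGAGACaaactgaac

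The pattern was found in 9 of the 10 genes and had no match in BCL2L13. How often it occurs in other genes was not tested. BID held a further match at codon 71, which is not its BH3 motif and is not shown. Among the matches shown, the serine form of the pattern occurred in BAD alone. The codon of the leucine lay at position 29 of 54 in PMAIP1, the shortest product of the family, and at position 213 of 350 in MCL1. The tables hold 1 value per gene, so isoforms such as the long and short products of BCL2L1 and MCL1, which act in opposite directions, cannot be told apart in these data.

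**Figure D1:**
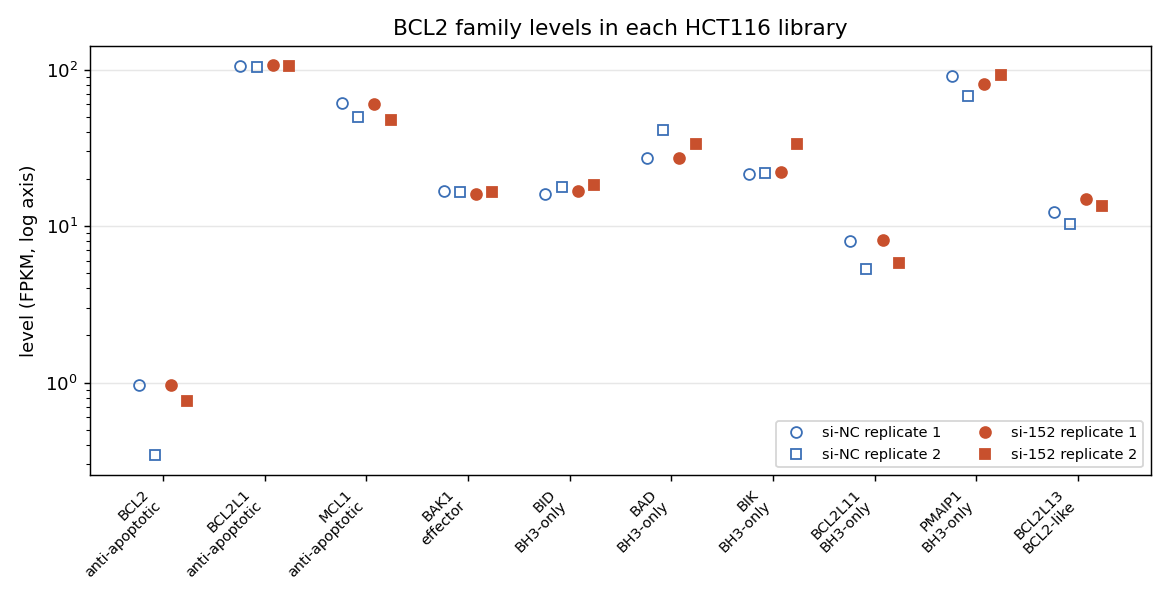
Level of each of the 10 BCL2 family genes in FPKM (vertical axis, log scale) in the 4 HCT116 libraries, with open blue symbols for si-NC, filled orange symbols for si-152, circles for replicate 1 and squares for replicate 2. BCL2L1 and PMAIP1 were the highest and BCL2 was below 1 FPKM in every library.

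In HCT116, BCL2L1 had the highest level among the listed genes and BCL2 the lowest. Over the 4 libraries BCL2L1 averaged 105.3 ± 1.10 FPKM (SD, n = 4) and was followed by PMAIP1 at 83.3 ± 11.5, MCL1 at 54.7 ± 7.18, BAD at 32.2 ± 6.61, BIK at 24.7 ± 5.78, BID at 17.2 ± 1.05, BAK1 at 16.5 ± 0.248, BCL2L13 at 12.7 ± 1.96, BCL2L11 at 6.84 ± 1.48 and BCL2 at 0.759 ± 0.293 FPKM. The libraries of neighbouring genes in this order did not overlap, except those of BAD with BIK and of BID with BAK1.

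The comparison of si-152 with si-NC asks whether these apoptosis regulators changed with LINC00152 suppression. None of the 9 members tested had an adjusted p under 0.05, and 0 of 9 had an unadjusted p under 0.05 by limma on log2(FPKM + 1). Among the 11222 genes tested, 492 (4.38%) passed the unadjusted threshold, 186 (1.66%) passed it with a fold change above 1.5, and 2 (0.0178%) passed the adjusted threshold. The median size of the log2 difference was 0.07 for the 9 members and 0.13 for all tested genes. The median signed difference, si-152 minus si-NC, was 0.04 for the members, with 6 higher and 3 lower. For all tested genes it was 0.02, with 6085 higher and 5137 lower. A p that misses the threshold does not show that a gene was unchanged, so the 95% interval of each difference is given below. The labels call the replicates biological and the methods call them independent, without naming the days or cultures.

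**Figure D2:**
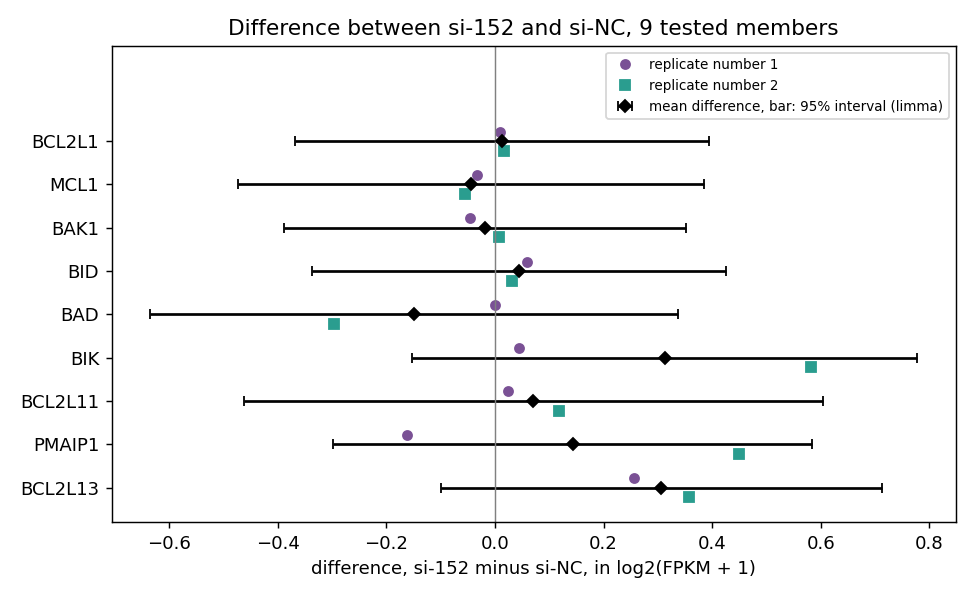
Difference between si-152 and si-NC in log2(FPKM + 1) (horizontal axis) for the 9 members tested. Diamonds with bars show the mean difference and its 95% interval by limma, and circles and squares show the difference within replicate number 1 and 2. All 9 intervals, from the fit without the replicate block, include 0.

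Among the anti-apoptotic genes, BCL2L1 on chromosome 20 (31664452 to 31723989, minus strand of GRCh38) encodes BCL-XL, which restrains BAK1 and BAX and binds most BH3-only proteins. BCL2L1 was at 105.8 and 103.9 FPKM after si-NC, against 106.4 and 105.1 FPKM after si-152. All 4 libraries lay within a few FPKM of each other and the groups overlapped. The difference was 0.01 on the log2 scale (standard error 0.17, adjusted p = 1.00 by limma), with an interval from -0.37 to 0.39, a fold of 0.775 to 1.31. It was 0.0090 within replicate number 1 and 0.02 within number 2. An antisense RNA gene, ABALON, shares 1424 of the 3314 exonic bases of BCL2L1 on the opposite strand, and whether reads were counted by strand is not given in the sources used here.

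MCL1, on chromosome 1 (150574551 to 150579738, minus strand), encodes a short-lived anti-apoptotic protein that holds BAK1 in check. MCL1 was at 61.6 and 49.5 FPKM after si-NC, against 60.1 and 47.6 FPKM after si-152. The libraries of replicate 1 were the higher ones in both groups, and the groups overlapped. The log2 difference was -0.04 (standard error 0.19, adjusted p = 1.00 by limma), with an interval from -0.47 to 0.38. Within replicate numbers 1 and 2 it was -0.03 and -0.06, whereas replicate 2 minus replicate 1 was -0.31 in si-NC and -0.33 in si-152 on the same scale.

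BCL2, on chromosome 18 (63123346 to 63320128, minus strand), gave the family its name through its translocation in follicular lymphoma. BCL2 was at 0.960 and 0.344 FPKM after si-NC, against 0.969 and 0.761 FPKM after si-152. No library reached the 1 FPKM required for testing. With no filter on level, its log2 difference was 0.20 (adjusted p = 0.980 by limma), and the lowest library was si-NC replicate 2. At this level the log2(FPKM + 1) scale understates any change. Of the summed FPKM of BCL2, BCL2L1 and MCL1 in each library, BCL2 made up 0.224% to 0.578%, BCL2L1 62.8% to 68.5% and MCL1 31.0% to 36.6%.

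BAK1, on chromosome 6 (33572547 to 33580293, minus strand), encodes the effector that sits in the outer membrane of healthy cells. BAK1 was at 16.6 and 16.5 FPKM after si-NC, against 16.1 and 16.6 FPKM after si-152. The libraries lay within 1 FPKM of each other, and the groups overlapped. The log2 difference was -0.02 (standard error 0.16, adjusted p = 1.00 by limma), with an interval from -0.39 to 0.35, and was -0.05 and 0.0077 within replicate numbers 1 and 2. A processed copy of the gene, BAK1P1, could take part of its reads, which was not tested here. BAK1 also shares 91 of its 2212 exonic bases with GGNBP1 on the opposite strand.

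Among the BH3-only genes, PMAIP1 on chromosome 18 (59899948 to 59904306, plus strand) encodes NOXA, which binds MCL1 and speeds its degradation. PMAIP1 was at 91.2 and 67.8 FPKM after si-NC, against 81.4 and 92.9 FPKM after si-152. The difference had opposite signs in the replicate numbers, -0.16 in number 1 and 0.45 in number 2. Its mean was 0.14 (standard error 0.20, adjusted p = 1.00 by limma), with an interval from -0.30 to 0.58. PMAIP1 alone made up 44.0% to 55.6% of the summed FPKM of the BH3-only members of the list, a sum that leaves out BBC3.

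BIK, on chromosome 22 (43110748 to 43129712, plus strand), encodes a BH3-only protein located mainly at the endoplasmic reticulum. BIK was at 21.4 and 21.99 FPKM after si-NC, against 22.1 and 33.4 FPKM after si-152. Both si-152 libraries lay above both si-NC libraries, but si-152 replicate 1 did so by little, and si-152 replicate 2 carried the difference. Groups that did not overlap in either direction were found for 30.4% of all tested genes. The log2 difference was 0.31 (standard error 0.21, adjusted p = 1.00 by limma), with an interval from -0.15 to 0.78. Within replicate numbers 1 and 2 it was 0.04 and 0.58. Without si-152 replicate 2 it was 0.03, and without si-152 replicate 1 it was 0.60 with an unadjusted p under 0.05 and an adjusted p = 1.00 by limma (0.305 to 1.00 over all alternatives).

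BAD, on chromosome 11 (64269830 to 64284704, minus strand), encodes a BH3-only protein that is held inactive by 14-3-3 proteins while survival signalling keeps it phosphorylated. BAD was at 27.2 and 41.2 FPKM after si-NC, against 27.2 and 33.3 FPKM after si-152. Replicate 1 gave nearly equal values in both groups, and si-NC replicate 2 was the highest library. The log2 difference was -0.15 (standard error 0.22, adjusted p = 1.00 by limma), with an interval from -0.63 to 0.34, and was -0.30 within replicate number 2 and close to 0 within number 1. BAD shares 404 of its 1708 exonic bases with GPR137 on the opposite strand, and GPR137 was at 6.95 and 8.71 FPKM after si-NC, against 9.73 and 9.59 FPKM after si-152. The part of GPR137 reads in the BAD values was not tested.

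BID, on chromosome 22 (17734138 to 17774770, minus strand), links death receptors to mitochondria once caspase-8 has cut it. BID was at 16.0 and 17.9 FPKM after si-NC, against 16.7 and 18.3 FPKM after si-152. Replicate 2 was the higher library in both groups, and the groups overlapped. The log2 difference was 0.04 (standard error 0.17, adjusted p = 1.00 by limma), with an interval from -0.34 to 0.43. It was 0.06 within replicate number 1 and 0.03 within number 2.

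BCL2L11, on chromosome 2 (111119378 to 111168447, plus strand), encodes BIM, a BH3-only protein able to bind all the anti-apoptotic members and to activate the effectors. BCL2L11 was at 8.03 and 5.31 FPKM after si-NC, against 8.18 and 5.85 FPKM after si-152. Replicate 1 was higher in both groups and the groups overlapped. The log2 difference was 0.07 (standard error 0.24, adjusted p = 1.00 by limma), with an interval from -0.46 to 0.60, the widest of the 9. Within replicate numbers 1 and 2 the difference was 0.02 and 0.12, whereas replicate 2 minus replicate 1 was -0.52 in si-NC and -0.42 in si-152.

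The position of BCL2L11 bears on what its value can hold. It lies inside the span of MIR4435-2HG on the opposite strand of chromosome 2 (111036776 to 111523376), and 727 of its 6658 exonic bases are also exonic in that gene. MIR4435-2HG is the near copy of LINC00152, which GENCODE v29 names CYTOR (chromosome 2, 87454781 to 87636740). The best alignment between transcripts of the genes ran over 2254 bases with 99.2% identity. The mouse counterpart of MIR4435-2HG, Morrbid, is known as a repressor of Bcl2l11 in short-lived myeloid cells. Whether si-152 lowered MIR4435-2HG, and how many of its reads entered the BCL2L11 value, was not tested here.

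BCL2L13 (17628855 to 17730855, plus strand) ends 3282 bases from the end of BID on chromosome 22, with the genes pointing toward each other. It encodes a mitochondrial membrane protein that is also known as a mitophagy receptor. BCL2L13 was at 12.3 and 10.3 FPKM after si-NC, against 14.9 and 13.4 FPKM after si-152. Both si-152 libraries lay above both si-NC libraries, by 0.26 and 0.36 on the log2 scale within replicate numbers 1 and 2. The mean difference was 0.31 (standard error 0.18, adjusted p = 1.00 by limma), with an interval from -0.10 to 0.71. The difference was 0.19 without si-NC replicate 2 and 0.43 without si-NC replicate 1. Over the alternatives tried for BCL2L13, the adjusted p by limma ran from 0.218 to 1.00. The 0.218 came with the replicate block, where the unadjusted p of BCL2L13 was 0.0225 by limma. Non-overlapping groups were seen in 2 of the 9 members tested, BIK and BCL2L13, beside the 30.4% of all tested genes given above. The same direction in both replicate numbers was seen in 7 of the 9 members and in 63% of all tested genes.

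The study works with miR-185-3p, one of the microRNAs it pairs with LINC00152, and the others were not searched here. The annotated 3′-UTRs of the members were searched for the miR-185-3p seed match (exons are those of the transcript with the longest 3′-UTR). The mature sequence from RefSeq (GRCh38.p14, chr22:20033188-20033209, plus strand) is shown with its seed, bases 2 to 8, in capitals, and the matches found are shown with the matching bases in capitals.
miR-185-3p: aGGGGCUGgcuuuccucugguc
BCL2L1 (chr20:31665295-31665321, minus strand, exon 2 of 2): ctggctagaggcCAGCCCCacccagga
BCL2L11 (chr2:111166245-111166271, plus strand, exon 6 of 6): tcctcagccctgCAGCCCCtgggagca

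The word CAGCCCC was searched on the transcript strand of the longest 3′-UTR per gene, and 2 of the 10 members, BCL2L1 and BCL2L11, held it once. Of 10755 tested genes with an annotated 3′-UTR, 21.8% held it. The 2 genes with a match differed by 0.01 and 0.07 between si-152 and si-NC on the log2 scale, as given above. The match describes the letters of these UTRs and is not evidence of binding.

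**Figure D3:**
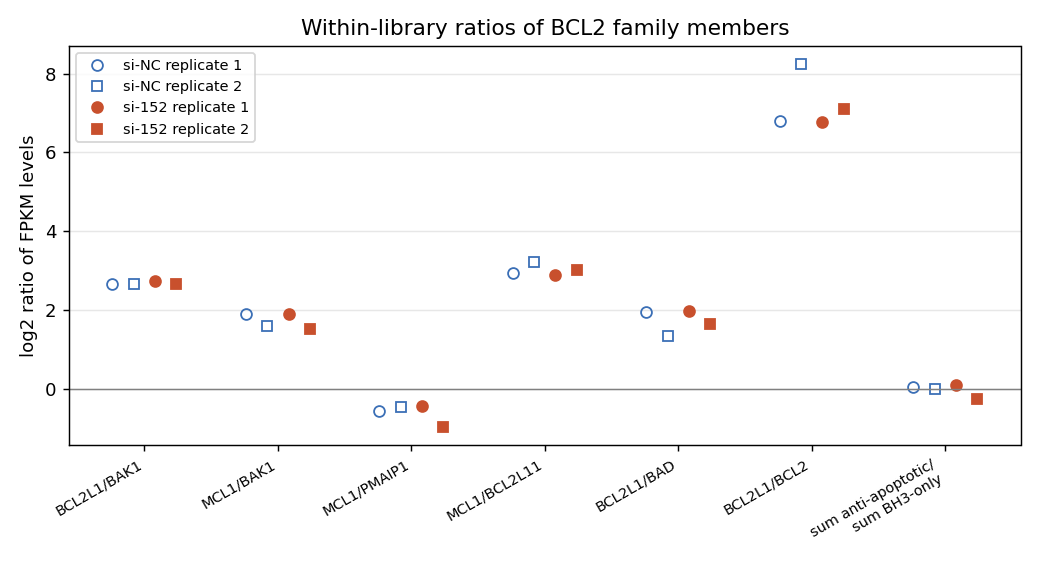
Log2 ratio of FPKM levels within each library (vertical axis) for 6 fixed pairs of members, with the same symbols as in the plot of levels. The last ratio is the summed anti-apoptotic over the summed BH3-only members of the list, without BCL2L2 and BBC3. BCL2L1/BAK1 stayed between 2.65 and 2.72, while BCL2L1/BCL2 ran from 6.78 to 8.24.

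Ratios between members within a library do not depend on how the libraries were scaled. These are ratios of RNA levels, and no protein was measured here. They are given without a test, since the smallest p that an exact permutation test of 2 against 2 libraries can give is 0.333. The BCL2L1 level was 6.35 and 6.29 times the BAK1 level in si-NC and 6.61 and 6.33 times in si-152, the most even of the ratios. The MCL1 level was 3.70 and 2.998 times the BAK1 level in si-NC and 3.73 and 2.87 times in si-152, which followed the replicate number. Relative to BCL2L11, MCL1 was at 7.67 and 9.32 times in si-NC and at 7.35 and 8.14 times in si-152. The BCL2L1 level was 3.88 and 2.52 times the BAD level in si-NC and 3.91 and 3.15 times in si-152.

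MCL1 relative to PMAIP1, its selective antagonist, was at 0.675 and 0.730 in si-NC and at 0.739 and 0.512 in si-152. The lowest ratio was in si-152 replicate 2 and the highest in si-152 replicate 1, so the si-152 libraries lay on either side of si-NC. The summed anti-apoptotic FPKM was 1.03 and 0.997 times the summed BH3-only FPKM in si-NC and 1.08 and 0.835 times in si-152. The log2 difference of this ratio, si-152 minus si-NC, was 0.07 in replicate number 1 and -0.26 in number 2. The sums hold only the listed members and leave out BBC3, at 30.3 to 47.6 FPKM, and BCL2L2, at 12.9 to 14.8 FPKM. The ratio with these genes added was not tested. Summed anti-apoptotic FPKM was 168.3 and 153.7 in si-NC and 167.6 and 153.4 in si-152, whereas summed BH3-only FPKM was 163.9 and 154.1 in si-NC and 155.6 and 183.8 in si-152.

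**Figure D4:**
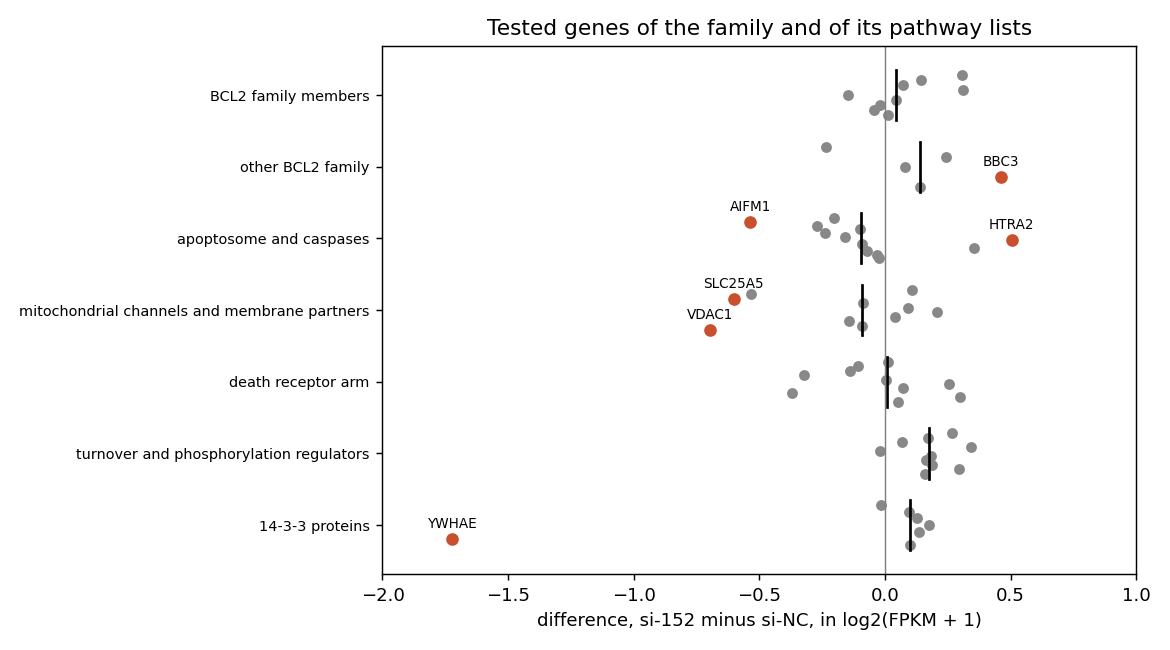
Difference between si-152 and si-NC in log2(FPKM + 1) (horizontal axis) for the tested genes of the BCL2 family list and of 6 pathway lists. Each dot is a gene, orange and named where the unadjusted p by limma is under 0.05, and the black bar is the median of the list. No dot of the BCL2 family list is orange.

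The genes around the family were taken from 6 lists. Of the 11 other BCL2 family genes, 5 passed the filter and 1 of these, BBC3, passed an unadjusted p under 0.05. BBC3, which encodes the p53-induced BH3-only protein PUMA, was at 30.3 and 34.9 FPKM after si-NC, against 42.8 and 47.6 FPKM after si-152. Its log2 difference was 0.46 (standard error 0.17, adjusted p = 1.00 by limma), and it no longer passed the unadjusted threshold without si-NC replicate 1 (0.36) or without si-152 replicate 2 (0.39). BAX, the effector beside BAK1, was at 38.8 and 54.6 FPKM after si-NC, against 46.5 and 55.4 FPKM after si-152, with overlapping groups. BCL2L2, BOK and BCL2L12 also had log2 differences within 0.25 of 0, and BCL2A1, BCL2L10, BMF, HRK, BCL2L14 and BCL2L15 were too low to test. The median over the 5 tested genes was 0.14.

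Downstream of the mitochondrial pore, 2 of the 12 apoptosome and caspase genes reported had an unadjusted p under 0.05, 1 of them higher and 1 lower in si-152, with 2 higher and 10 lower among the 12 and a median of -0.10. HTRA2, a protease released from mitochondria, was at 8.93 and 13.8 FPKM after si-NC, against 15.4 and 17.1 FPKM after si-152. It had a log2 difference of 0.50 (standard error 0.22, adjusted p = 1.00 by limma), which no longer passed the unadjusted threshold in 6 of 12 alternatives, namely without si-NC replicate 1 (0.22), without si-152 replicate 2 (0.43), with no filter on level, with size factors, with quantile normalization and with no variance trend. AIFM1, a mitochondrial flavoprotein, was at 27.9 and 28.6 FPKM after si-NC, against 18.4 and 20.0 FPKM after si-152. It had a difference of -0.54 with a standard error of 0.16 (adjusted p = 0.815 by limma), which no longer passed the unadjusted threshold without si-152 replicate 1 (-0.48).

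Among 10 mitochondrial channel and membrane genes, 2 had an unadjusted p under 0.05, both lower in si-152. The whole list had 4 higher and 6 lower with a median of -0.09, beside 6085 higher and 5137 lower among all tested genes. VDAC1, the main outer membrane anion channel, was at 102.4 and 104.9 FPKM after si-NC, against 63.6 and 63.5 FPKM after si-152. The libraries of each group were nearly equal, and the log2 difference was -0.70 (standard error 0.17, adjusted p = 0.595 by limma). VDAC2, the isoform that holds BAK1 at the membrane, was at 126.2 and 114.4 FPKM after si-NC, against 109.3 and 116.1 FPKM after si-152, with a difference of -0.09 (standard error 0.18). SLC25A5, an adenine nucleotide carrier, had a difference of -0.60 (standard error 0.19, adjusted p = 0.878 by limma), which no longer passed without si-NC replicate 2 (-0.45).

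None of 10 death receptor genes and none of 10 regulators of MCL1, BIM and BAD turnover or phosphorylation had an unadjusted p under 0.05 by limma. The smallest p-values in the death receptor list belonged to TNFRSF10B, encoding the TRAIL receptor DR5, with a log2 difference of -0.37 (standard error 0.21), and to TNFRSF10A, encoding DR4, with 0.30 (standard error 0.18). In the regulator list they belonged to AKT1, a kinase that phosphorylates BAD, with 0.34 (standard error 0.16), and to FBXW7, which marks MCL1 for degradation, with 0.29 (standard error 0.19). With a library left out, the difference of TNFRSF10B ran from -0.58 without si-NC replicate 2, where it passed the unadjusted threshold, as it did without si-152 replicate 1, to -0.16 without si-NC replicate 1. That of TNFRSF10A ran from 0.17 without si-152 replicate 1 to 0.43 without si-152 replicate 2. AKT1 passed the unadjusted threshold with no filter on level and with quantile normalization. Of the regulators, 9 of 10 were higher in si-152 and the median was 0.18. For all tested genes, 6085 of 11222 were higher and the median was 0.02. The median of the death receptor list was 0.01, and it was -0.01 with size factors or quantile normalization. Of the 7 14-3-3 genes, YWHAE was lower, at 8.81 and 23.0 FPKM after si-NC, against 2.50 and 5.19 FPKM after si-152 (log2 difference -1.72, standard error 0.39, adjusted p = 0.595 by limma), and the list median was 0.10. For YWHAE with all 4 libraries, the adjusted p by limma ran from 0.00223 with the replicate block to 0.939 with no filter on level. Its difference was -2.37 without si-NC replicate 1 and -1.08 without si-NC replicate 2. YWHAE was the least abundant of these 14-3-3 genes, and YWHAZ was at 516.5 to 598.2 FPKM.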

How the data were processed

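HCT116 libraries of si-NC and si-152 (2 each) were grouped by the sample titles. The authors deposited, for each library, FPKM values made from their reads, 1 for each gene symbol; the unit is not named in the tables and was inferred from the values. The submitters' processing notes name Trimmomatic, TopHat, HISAT2, HTSeq and DESeq, and GRCh38, without versions or roles; the annotation is not given in the sources used here. The differential test in the study's methods needs read counts. Instead, limma 3.58.1 (R 4.3.3, mean-variance trend, Benjamini-Hochberg adjustment) was fitted to log2(FPKM + 1) without scaling or block. The fit took the 11222 genes that reached 1 FPKM in 2 or more libraries. It was also tried on simulated libraries that varied independently, whereas same-numbered deviations here correlated at 0.52. Depth is unknown, so no counting error is given. Intervals are limma's 95% intervals. Sequences came from GENCODE v29 and RefSeq, read with Python 3.11.15. The members, gene lists and tests were chosen with earlier results of these data known. All 10 members are described, and of each pathway list the genes with an unadjusted p under 0.05 or otherwise the 2 with the smallest p, with GPR137, the remaining tested BCL2 family genes, VDAC2 and YWHAZ added after their values were seen. Alternatives changed the pseudocount, the filter, the scaling, the variance trend, the block and the libraries used; those for the pathway genes were added after the data were seen. Some genes of the apoptosome and caspase list are not reported here and were left out of its counts and median.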

Additional observations from a re-analysis of the deposited data

How the results depend on the processing

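Of 108 member values recomputed under alternatives, 95 kept their direction and side of the unadjusted threshold, 11 turned sign and 2 passed that threshold. The count of members past it was 0 and became 1 with the replicate block (BCL2L13, adjusted p = 0.218 by limma). The other value that passed was that of BIK without si-152 replicate 1, at a log2 difference of 0.60. The share of all tested genes past the unadjusted threshold in that fit is not given here. The count of all genes past it with a fold change above 1.5 was 186, 209 with the block, and 242 to 546 with a library left out, where the lone library of a group is assumed to vary like the other group. Changing the filter on level, the block or the variance trend leaves the log2 difference itself as it is, so its direction could not turn there. Apart from that of BCL2L1 with size factors, the sign changes came with a library left out. With size factors the log2 difference of BCL2L1 was -0.0080. With a library left out it ran from -1.5e-05 to 0.026 for BCL2L1, -0.21 to 0.12 for MCL1, -0.039 to 0.0020 for BAK1, -0.030 to 0.12 for BID, -0.44 to 0.14 for BAD, 0.03 to 0.60 for BIK, 0.19 to 0.43 for BCL2L13, -0.19 to 0.33 for BCL2L11 and -0.068 to 0.35 for PMAIP1. The cause was not tested. Whether libraries with the same replicate number were prepared together is not given in the sources used here. Same-numbered deviations correlated at 0.52 over tested genes. The block raised the unadjusted count from 492 to 1893 and the adjusted count from 2 to 78, with no member past the adjusted threshold. The standard errors and intervals given for the members come from the fit without the block. With the block, VDAC1 reached an adjusted p = 0.0324 by limma (up to 0.879 under other alternatives), and YWHAE 0.00223. The block put 3 death receptor genes and 2 regulators, among them TNFRSF10A, TNFRSF10B, AKT1 and FBXW7, under the unadjusted threshold, where the fit without the block and with the other settings as reported had 0 of either. Read depth is unknown, and BCL2 was too low to test.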
